A study of Homo sapiens with 3 samples.

Results

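The SLC25 carriers are a family of transport proteins found mainly in the inner mitochondrial membrane, and their genes were compared between SW480 cells depleted of RBMS1 and control cells. SW480 is an established human colon adenocarcinoma line. Total RNA came from 1 library of cells transduced with shRBMS1, a commercial short hairpin RNA (shRNA) against RBMS1, and 2 libraries of cells transduced with shControl, all collected 48 hours after transduction. The labels do not tell whether the hairpin was the same in the 2 control libraries, and the study rests on 1 cell line. Members were all genes whose symbol is SLC25A followed by digits: 38 genes with 64 RefSeq transcripts, of 12582 genes in all. The RefSeq gene table holds 48 such symbols, and the other 10 (SLC25A2, SLC25A18, SLC25A21, SLC25A31, SLC25A34, SLC25A35, SLC25A41, SLC25A47, SLC25A48 and SLC25A52) were not analysed here.

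The carriers fold from repeats of the same membrane module, and most let a defined solute cross the inner membrane, usually in exchange for another. Together the carriers link the matrix to the cytosol: they export ATP, bring in ADP and phosphate, move amino acids and carboxylates for shuttles and biosynthesis, and deliver cofactors and iron. Several family members have no settled substrate and are called orphan carriers. RBMS1 binds RNA at motifs rich in A and U, such as AUAUA, and is known to affect the stability of messenger RNAs it binds.

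Every value is a log2 fold change per RefSeq transcript from the authors' deposited table, shRBMS1 over shControl, so that 1 stands for a doubling and −1 for a halving relative to control. Each gene was given the median over its transcripts, computed here. With 1 knockdown library and no level per library used here, no value carries an error, the depth is unknown, and no test was made. RBMS1 itself, on chromosome 2 at 160272151 to 160493807 (hg38), had a median of −1.49, or 35.6% of control, from transcripts that the authors' deposited table puts at −1.62 and −1.36. The ratio was read so that RBMS1 lies lower in the knockdown, so this sign checks no label and every sign below rests on it. Of 10 markers of colon epithelium 7 were in the table (KRT20, CDX1 and LGALS4 were not), with a median of −0.43. Of 6 markers each, 2 of leukocytes (LYZ and CD68) were there, with a median of −0.61, and 0 of fibroblasts and 0 of endothelium. In bulk RNA, fewer cells of a kind and less RNA per cell cannot be told apart.

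Because RBMS1 is known to bind this motif (ATATA in DNA letters), matches in the 3′ untranslated regions (UTRs) of 8 carriers are shown, from the classes compared below. Each is the match nearest the stop codon with its whole window inside 1 exon of the UTR, with 12 bases on either side, on the transcript strand 5′ to 3′ from GENCODE 29 (GRCh38). The capitals mark 1 ATATA in each window. The windows of SLC25A12 and SLC25A13 hold further matches, wholly or partly in small letters.
SLC25A30: tgtggattcataATATAaaaagtggctcc
SLC25A53: ctggttggttctATATAgcttacttcttt
SLC25A3: aaaggaacttttATATAtttgacagtgta
SLC25A5: gcatgttgtattATATAacatatcttgag
SLC25A24: atttcttgttttATATAttttgaatgtct
SLC25A27: tcaagagttgtaATATAttaagaactaca
SLC25A12: tttctgtatgacATATAcatatacttgtt
SLC25A13: agaaatgaaaaaATATAtatcaaatatat
The windows lie at chr13:45393484-45393512 (minus strand) for SLC25A30, chrX:104104261-104104289 (minus) for SLC25A53, chr12:98601587-98601615 (plus) for SLC25A3 and chrX:119471092-119471120 (plus) for SLC25A5. The others lie at chr1:108136245-108136273 (minus) for SLC25A24, chr6:46677257-46677285 (plus) for SLC25A27, chr2:171785127-171785155 (minus) for SLC25A12 and chr7:96120723-96120751 (minus) for SLC25A13. A match describes the letters and does not show binding.

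Most carriers lay close to 0. Of the 38 genes, 32 (84.2%) were within 0.5 of 0 on the log2 scale, against 76.9% of all genes. The family median was 0.04 with quartiles of −0.19 and 0.21, beside a median of 0.01 and quartiles of −0.25 and 0.23 over all 12582 genes. Above 0 lay 21 carriers (55.3%), beside 51.5% of all genes, and below 0 lay 17. At the ends, 3 carriers were higher by at least 1, where 3.95% of all genes were, and 2 were lower by at least 1, where 3.96% of all genes were. With a threshold of 2, 1 carrier was higher (1.08% of all genes) and 0 were lower (1.27% of all genes). With 0.58, a change of 1.5 times, 3 were higher (8.35% of all genes) and 3 were lower (10.5% of all genes), the added one being SLC25A11. Counts this small are given as a description, and nothing particular to the family is read from them.

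**Figure D1:**
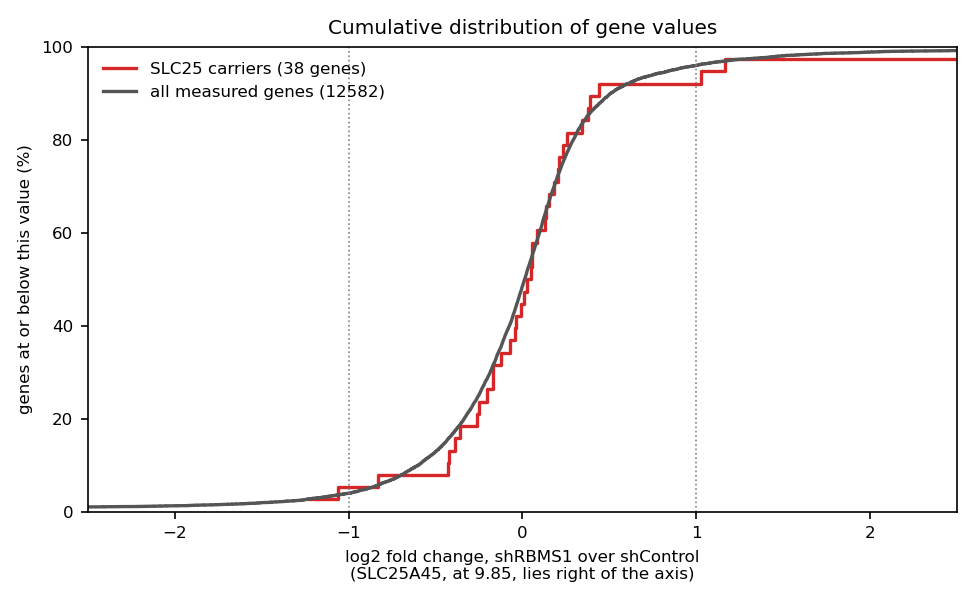
Cumulative share of genes (vertical axis, percent) at or below each log2 fold change, shRBMS1 over shControl (horizontal axis), for the 38 SLC25 carriers and all 12582 measured genes, with dotted lines at −1 and 1. The curves run close together through the middle, with medians of 0.04 and 0.01, and SLC25A45 at 9.85 lies beyond the right edge.

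The carriers higher by at least 1 were the orphan SLC25A45 at 9.85, the glutamate carrier SLC25A22 at 1.17 and the folate and FAD carrier SLC25A32 at 1.03 as gene medians of the authors' deposited table. Among those lower by at least 1 was SLC25A30, known as the kidney mitochondrial carrier, at −1.06 (48.0% of control). SLC25A45 and SLC25A30 each rest on 1 transcript. SLC25A22 and SLC25A32 each have transcripts on both sides of 0, described with their classes.

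**Figure D2:**
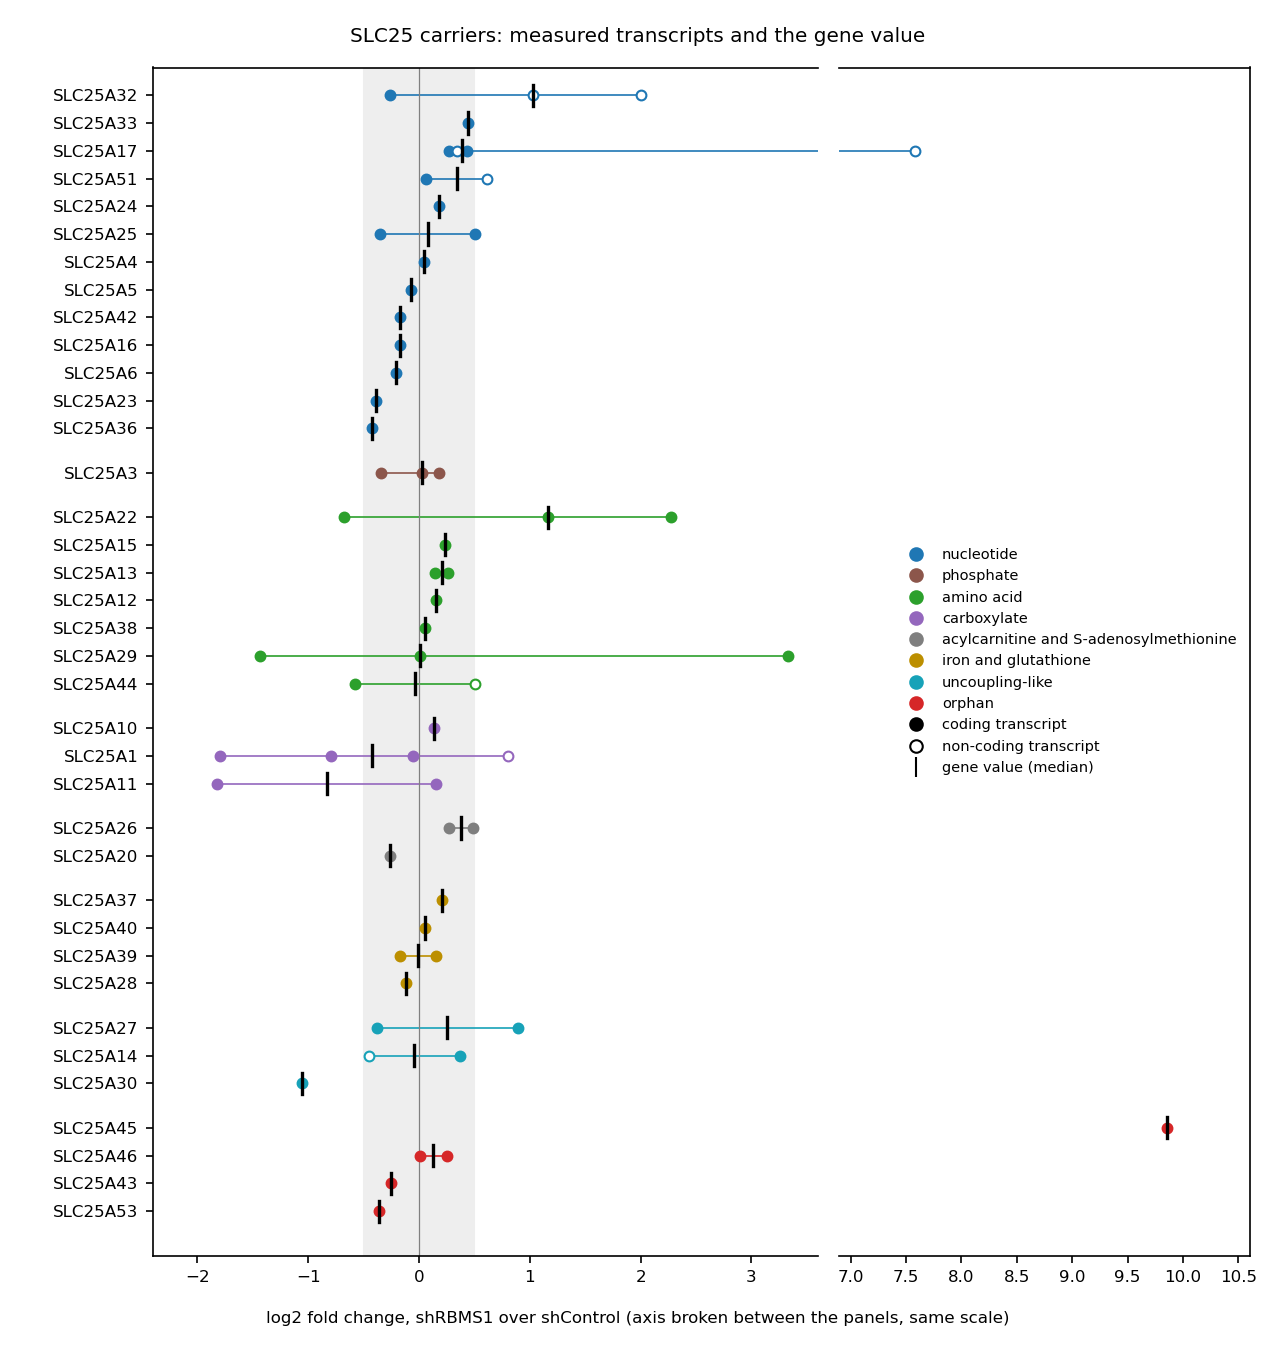
Log2 fold change, shRBMS1 over shControl (horizontal axis, broken between the panels), of the measured transcripts of 37 carriers, grouped by class down the page. Filled circles are coding transcripts, open circles non-coding transcripts, black bars the gene medians and the grey band 0.5 on either side of 0, which holds 32 of the 37 medians shown.

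Carriers of nucleotides and nucleotide-like cofactors were the largest class, with 14 of 17 listed genes measured. Their median was −0.01, 7 lay above 0 and 7 below, and 12 were within 0.5 of 0. Over all genes 51.5% lay above 0 and 76.9% were within 0.5 of 0. The ADP/ATP carriers, which exchange matrix ATP for cytosolic ADP and are among the most abundant proteins of the inner membrane, stood together near 0. In the authors' deposited table SLC25A4, the form typical of heart and muscle, was at 0.05 (chromosome 4, 185143266 onward), SLC25A5, the form of dividing cells, at −0.07 (95.1% of control), and SLC25A6 at −0.20 (86.9% of control). SLC25A5 lies on chromosome X from 119468444, and SLC25A6 lies on X from 1386152 in the region that X and Y share. Each has 1 transcript in the table. Their coding sequences of 897 bases are 77.3% identical between SLC25A4 and SLC25A5, 77.9% between SLC25A4 and SLC25A6, and 78.8% between SLC25A5 and SLC25A6, with a longest identical run of 29 bases in the last of these. RefSeq also names 9 pseudogenes after SLC25A5 and 6 after SLC25A6. The labels do not say how reads were shared out among these copies, so the 3 values are uncertain to that extent.

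The ATP-Mg/phosphate carriers, which set the matrix pool of adenine nucleotides in response to calcium, lay on both sides of 0. SLC25A24 was at 0.18 and SLC25A23 at −0.39 in the authors' deposited table, and SLC25A25 had transcripts at 0.51 and −0.35, with a median of 0.08. Those SLC25A25 transcripts differ in coding length, 1407 bases for the higher and 1509 for the lower, by their GENCODE models. The pyrimidine nucleotide carriers lay on opposite sides of 0. SLC25A33 was at 0.44 (136% of control) and SLC25A36 at −0.43 (74.4% of control), both from the authors' deposited table. Their coding sequences are 64.2% identical.

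Cofactor carriers had a median of 0.09 over 6 genes. SLC25A42 and SLC25A16, linked to the transport of coenzyme A, were both at −0.17 in the authors' deposited table. SLC25A51, which imports NAD, had its coding transcript at 0.07 and a non-coding transcript at 0.61 there, for a median of 0.34. SLC25A17, the family member of the peroxisome, which carries coenzyme A, FAD and NAD, had coding transcripts at 0.27 and 0.43 and non-coding transcripts at 0.35 and 7.59 by the authors' deposited table. In its median of 0.39 the value of 7.59 counts only by its rank, and without that value the median was 0.35. The mean of its transcripts was 2.16.

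SLC25A32 shows how far a carrier's value depended on the transcript. This carrier of folate and FAD, on chromosome 8 from 103398638, had its only coding transcript at −0.26 and non-coding transcripts at 1.03 and 2.00 by the authors' deposited table. A non-coding transcript therefore set its gene median of 1.03.

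The phosphate carrier SLC25A3 brings phosphate for ATP synthesis into the matrix, and also copper. It lies on chromosome 12 from 98593686 and stood at 0.02 (102% of control). Its transcripts, all coding, were at 0.18 for NM_002635, 0.02 for NM_213611 and −0.34 for NM_005888 in the authors' deposited table. NM_005888 has a coding length of 1086 bases in its GENCODE model. Splice forms of SLC25A3 that differ in an internal coding exon are well known. All 3 transcripts lay within 0.5 of 0. RefSeq names 3 pseudogenes after SLC25A3.

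Amino acid carriers lay slightly above 0. Of 9 listed genes 7 were measured, with a median of 0.15, 6 above 0 and 1 below. Over all genes 51.5% lay above 0, and with 7 members the count is a description. The aspartate-glutamate carriers of the malate-aspartate shuttle were close to each other. SLC25A12 (aralar) was at 0.15, and SLC25A13 (citrin) had transcripts at 0.15 and 0.26 by the authors' deposited table, for a median of 0.20. Their coding sequences are 71.7% identical. The ornithine carrier SLC25A15 was at 0.23 and SLC25A38, a glycine carrier needed for haem synthesis, at 0.05 in the authors' deposited table.

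The other amino acid carriers had transcripts far apart. SLC25A22, which carries glutamate with protons and lies on chromosome 11 from 790475, had transcripts NM_001191060 at 2.27, NM_001191061 at 1.17 and NM_024698 at −0.68 in the authors' deposited table. Their GENCODE models share the same coding exons of 969 bases and differ in total length, at 1790, 2692 and 2796 bases in that order. Transcripts for the same protein thus lay on both sides of 0. The transcript linked to the longest model was the only one below 0. SLC25A29, a carrier of basic amino acids on chromosome 14 from 100278567, had transcripts at 3.33, 0.01 and −1.43 by the authors' deposited table. The lowest, NM_001039355, has a coding length of 909 bases in its GENCODE model, and the gene median is that of another transcript, NM_001291813. SLC25A44, a carrier of branched-chain amino acids, had a non-coding transcript at 0.51 and its coding transcript at −0.58 there, for a median of −0.04.

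Carboxylate carriers had a median of −0.42 over 3 genes, and of 0.13 with transcripts linked to a principal model of GENCODE (by its APPRIS tag) or with each gene's least changed transcript. SLC25A10, the dicarboxylate carrier, was at 0.13 in the authors' deposited table. SLC25A1, which exports citrate for fatty acid and sterol synthesis, had coding transcripts at −0.06, −0.79 and −1.80 and a non-coding transcript at 0.80 there, for a median of −0.42 (74.6% of control). SLC25A11 exchanges oxoglutarate for malate in the malate-aspartate shuttle. Its transcripts were at 0.16 for NM_003562 and −1.82 for NM_001165418 in the authors' deposited table, for a median of −0.83 (56.1% of control). NM_003562 has the longer coding sequence, 942 against 789 bases, so the transcript for the longer protein stood near 0 and the shorter one set the low median.

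The 4 carriers of iron and glutathione all lay within 0.5 of 0, where 76.9% of all genes were. Among them the mitoferrins, which import iron for haem and iron-sulfur clusters, were at 0.21 for SLC25A37 and −0.12 for SLC25A28 in the authors' deposited table. The glutathione carrier SLC25A39 had a median of −0.01, and its paralogue SLC25A40 was at 0.06. SLC25A26, which imports S-adenosylmethionine for methylation in the matrix, had a median of 0.38 with transcripts at 0.48 and 0.27 by the authors' deposited table. SLC25A20, the carnitine-acylcarnitine carrier of fatty acid oxidation, was at −0.26 (83.5% of control).

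Carriers related to the uncoupling proteins held 1 of the lower members. SLC25A30, on chromosome 13 from 45393316, was at −1.06 with 1 coding transcript in the authors' deposited table, so no second transcript bears on it. SLC25A27, expressed mainly in brain, had transcripts at 0.89 and −0.38 there, for a median of 0.26. SLC25A14, also known from brain, had its coding transcript at 0.37 and a non-coding transcript at −0.46 in the authors' deposited table, for a median of −0.04.

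Orphan carriers lay near 0 apart from SLC25A45. Of 8 listed genes 4 were measured, with a median of −0.06. SLC25A45, on chromosome 11 from 65375192, was at 9.85 through its transcript NM_182556 in the authors' deposited table. That table holds no value beyond 10 in either direction and 109 transcripts beyond 9. With no level beside it, a large change and a level near 0 in the control libraries cannot be told apart. SLC25A46, an outer membrane protein tied to mitochondrial shape and inherited neuropathy, was at 0.13 with transcripts at 0.25 and 0.01 by the authors' deposited table. SLC25A43 was at −0.25 and SLC25A53 at −0.36. Without SLC25A45 the family median was 0.02 and the median of orphan carriers was −0.25.

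Set side by side, the class medians were −0.01 for nucleotide carriers (14 genes) and 0.02 for the phosphate carrier (1 gene). They were 0.15 for amino acid carriers (7 genes) and −0.06 for orphan carriers (4 genes). Without SLC25A45 that of orphan carriers was −0.25. With 1 value per gene and no replicate, the order of the classes was not tested.

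Where a carrier had more than 1 transcript in the table, its transcripts often went apart. Of 17 such carriers, 9 had transcripts more than 1 apart on the log2 scale, or 52.9%, beside 49.3% of the 4597 such genes in all. Among the 9 were SLC25A1, SLC25A11, SLC25A17, SLC25A22, SLC25A27, SLC25A29, SLC25A32 and SLC25A44. Transcripts on both sides of 0 were found in 12 of the 17, beside 66.5% of all such genes, so these shares are near the background. Of the 21 carriers with 1 transcript, 19 (90.5%) were within 0.5 of 0, beside 80.2% of the 7985 such genes in all. The exceptions were SLC25A30 and SLC25A45.

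Non-coding transcripts of carrier genes mostly lay above the coding ones, a pattern chosen after its values were seen. Of 8 non-coding carrier transcripts 7 were above 0, beside 59.5% of the 1950 non-coding transcripts of all genes. Of the 6 carrier genes with both kinds, 5 had the non-coding median higher, beside 57.7% of the 589 such genes in all. The non-coding minus coding difference was 3.62 for SLC25A17, 1.77 for SLC25A32, 1.59 for SLC25A1, 1.09 for SLC25A44 and 0.55 for SLC25A51. It was −0.83 for SLC25A14. The 3.62 rests on 1 non-coding transcript of SLC25A17 at 7.59, while the other was at 0.35, as was the coding median. The median difference over the 6 genes was 1.34, against 0.15 over all 589.

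**Figure D3:**
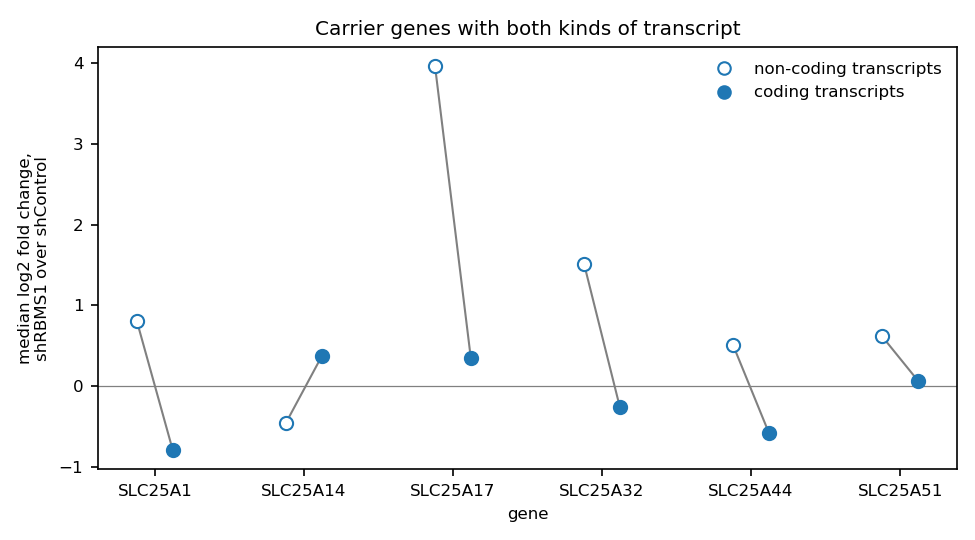
Median log2 fold change, shRBMS1 over shControl (vertical axis), of the non-coding transcripts (open circles) and coding transcripts (filled circles) of the 6 carrier genes that have both kinds in the table. Non-coding medians are higher in 5 genes, by 0.55 to 3.62, and lower in SLC25A14. The largest difference, for SLC25A17, rests on 1 transcript at 7.59.

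The 3′ UTRs of the carriers held ATATA about as often as those of other genes. Of 37 carriers with an annotated 3′ UTR, 21 (56.8%) held at least 1 match on the transcript strand, overlapping matches counted, beside 58.8% of 11189 genes. The median was 0.06 for carriers with a match and −0.03 for those without, beside 0.02 and −0.00480 over all genes. Below 0 lay 8 of the 21 carriers with a match, beside 48.3% of all genes with one, and 9 of the 16 without, beside 50.6% of all genes without. GENCODE links several accessions of 1 gene to the same model, as for SLC25A27 and for NM_002635 of SLC25A3, so the UTR searched may not be that of the transcript measured. SLC25A16, SLC25A27 and SLC25A53 had the most matches, 17 each, and their gene values were −0.17, 0.26 and −0.36. Their UTR models were 5431, 1739 and 5120 bases long in that order, beside a median of 1172 over the carriers. The UTR model of SLC25A51, counted as without a match, was 6 bases long. The comparison of genes with and without a match took no account of UTR length. Next came SLC25A40 with 12 matches, at 0.06, and SLC25A24 with 8, at 0.18. Among the carriers at or beyond 1, SLC25A30 had 4 matches and SLC25A32 had 7, while SLC25A22 and SLC25A45 had none in their annotated 3′ UTRs. The matches of SLC25A32 lie in the UTR of its coding transcript, which was at −0.26. Its gene median of 1.03 is that of a non-coding transcript.

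Genes of the carrier import route lay close to 0 as well. All 16 listed genes of the import route that inserts carriers into the inner membrane were measured, with a median of 0.06. None reached 1 in either direction, where 3.95% of all genes were higher and 3.96% lower. With 16 genes this count is a description. TOMM70, the outer membrane receptor for carriers, was highest at 0.33, and TIMM9, a chaperone of the intermembrane space, was lowest at −0.60, with transcripts from −0.96 to 3.08 in the authors' deposited table. The insertase subunit TIMM22 was at −0.03. Family members under other symbols were MTCH1 at 0.78, MTCH2, an outer membrane insertase, at 0.25, and the uncoupling protein UCP2 at −0.60. In the authors' deposited table MTCH1 had transcripts as low as −0.62 and as high as 1.63.

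Other mitochondrial transport genes had a median of 0.09 over 19 genes. Of these, 1 was higher by at least 1 (3.95% of all genes) and 1 lower by at least 1 (3.96% of all genes). VDAC3, an outer membrane channel, was at 1.80 from transcripts at 3.42 and 0.18 by the authors' deposited table. SMDT1, a subunit of the calcium uniporter, was at −1.17 from 1 transcript. The enzymes that work with SLC25A11, SLC25A12 and SLC25A13 in the malate-aspartate shuttle were at 0.30 for MDH2, 0.20 for MDH1, 0.07 for GOT1 and −3.51 for GOT2. The authors' deposited table held transcripts at 0.01 and −7.04 for GOT2, and at 0.81 and −0.20 for MDH2. Adenylate and creatine kinases, which handle the ATP that the ADP/ATP carriers export, had 5 of 7 genes measured and a median of 0.19. AK4 was lowest at −0.72, with transcripts from −1.22 to 2.23 in the authors' deposited table.

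**Figure D4:**
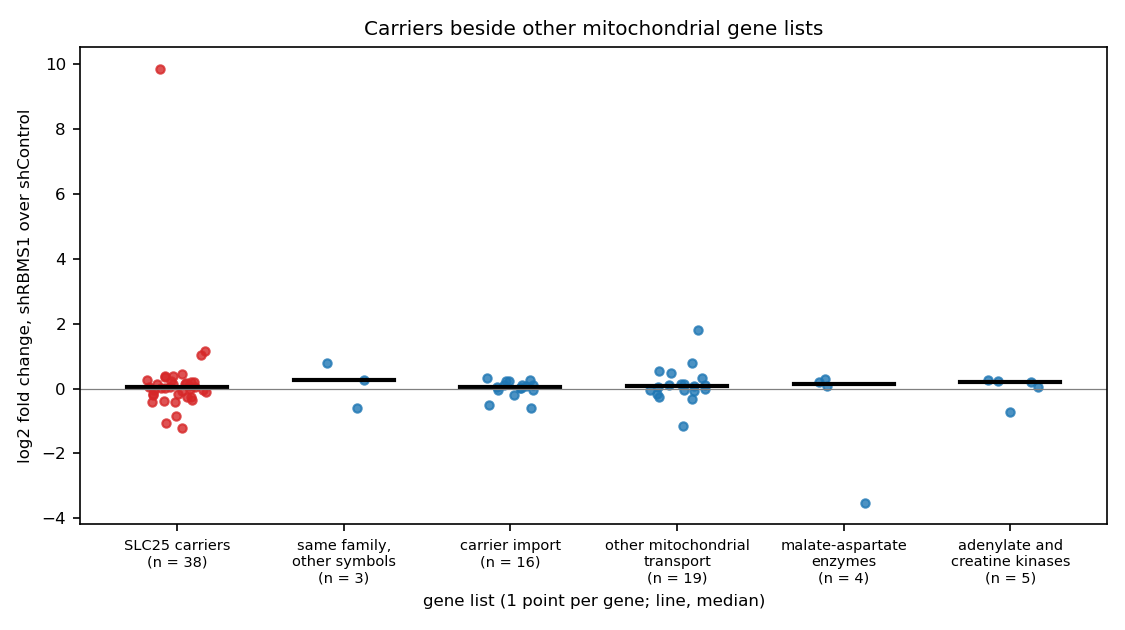
Log2 fold change, shRBMS1 over shControl (vertical axis), of the 38 carriers and of 5 other lists of mitochondrial genes, with 1 point per gene and a line at each median. The medians run from 0.04 to 0.25, and single genes stand apart at 9.85 (SLC25A45) and −3.51 (GOT2).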

How the data were processed

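Total RNA was sequenced from SW480 cells in 1 shRBMS1 and 2 shControl libraries, grouped by the shRNA in the labels. Ribosomal RNA was depleted before ScriptSeq library preparation, per the labels' protocols. STAR 2.5, Cufflinks and Cuffdiff, with the hg38 build, are listed without roles or settings in the submitters' processing notes. The authors deposited log2 fold changes per RefSeq transcript for 20104 transcripts, and no source used here states a filter on low levels. The file header gives neither base nor direction. Base 2 was taken because 20 transcripts lay 1 away, within 1.5e-05, from a value occurring at least 3 times, against 4 at ln 2 and 5 at log10 of 2. The direction was taken from RBMS1. How reads common to several transcripts of a gene were divided is not stated, and each transcript's value depends on it.

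RefSeq GRCh38.p14 names matched 19818 transcripts (98.6%), and the other 286 were left out. Coding and UTR models were those of GENCODE 29 linked to each RefSeq accession, and per-transcript structure is given only where 1 coding accession of the gene links to that model. Coding sequences were aligned with biopython 1.88. Python 3.11.15, numpy 2.4.6, pandas 2.3.3 and matplotlib 3.10.9 were used, and gene medians and counts were tested on simulated data. Named genes were RBMS1, all carriers, and the highest and lowest gene of each class and list; values of each transcript were given for ADP/ATP carriers, SLC25A3, carriers at or beyond 1 and carriers with transcripts more than 1 apart, and others for context. Values of 2 genes are not reported here. Members and lists were chosen with earlier results of these data known. Alternatives were other ways to take 1 value per gene, coding or principal transcripts alone, no transcript beyond 5, centring, and thresholds of 0.58 and 2.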

Additional observations from a re-analysis of the deposited data

How the results depend on the processing

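With no error per value, a value was called moved beyond 0.58 on the log2 scale and a count beyond 1.5 times. A gene value at or beyond 1 was called reversed when it changed sign. Smaller values that changed sign were called moved only beyond 0.58. Of 52 recomputed family and class values, 48 stayed within these limits, and those that did not were all counts. The recomputed medians all lay within 0.58 of 0 at the start. A median could therefore change sign without being called moved, as that of carboxylate carriers did, from −0.42 to 0.13. Staying within the limits thus does not show that the sign of a median is stable. The median of carboxylate carriers, recomputed after seeing the data, ran from −0.79 with coding transcripts alone to 0.13. The 3 carriers higher by at least 1 became 1 when each gene took its least changed transcript and 1 at a threshold of 2. The 2 lower by at least 1 became 1 with the mean of transcripts and 0 at a threshold of 2. SLC25A22 changed sign with its least changed transcript, to −0.68. SLC25A32 did so, to −0.26, with its least changed transcript, with coding transcripts alone and with transcripts linked to an APPRIS principal model of GENCODE, a setting chosen after seeing the data. In these settings a gene's value is that of other transcripts of the same gene. Of 38 carriers 31 neither moved nor reversed in any of the 6 settings, apart from SLC25A45, which has no value without transcripts beyond 5. But 21 of the 38 have 1 transcript, so no choice among transcripts could change their value. All 7 that moved or reversed were among the 17 with several. Some small values changed sign within the limits. With the least changed transcript SLC25A14 went from −0.04 to 0.37 and SLC25A44 from −0.04 to 0.51. Besides SLC25A22 and SLC25A32, SLC25A11 moved to 0.16 and SLC25A29 to −1.43 with principal transcripts, SLC25A17 to 2.16 with the mean, and SLC25A27 to −0.38 with its least changed transcript. No library could be left out, since only the authors' comparison was used. No paired analysis was possible because the result comes from no test and there is 1 shRBMS1 library. Depth is unknown.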

Other observations

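Antisense RNAs named after carriers lay near 0. SLC25A5-AS1, on chromosome X at 119466033 to 119469120, was at 0.11 in the authors' deposited table, which has SLC25A25-AS1, on chromosome 9 at 128111171 to 128118734, at 0.13. SLC25A5-AS1 overlaps the start of SLC25A5, which was at −0.07, and the labels do not say whether reads were counted by strand.

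Mitochondrial pyruvate carriers, which belong to a family of their own, lay above 0. Transcripts of MPC1 in the authors' deposited table were at 0.61, 0.47 and 0.40 and that of MPC2 at 0.14. The sideroflexins, among which SFXN1 carries serine, ran from 0.80 for SFXN4 to −0.34 for SFXN3, with SFXN1 at −0.25. The value of SFXN4 comes from transcripts at 1.53 and 0.07.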
